A study of Mus musculus with 2 samples.

Results

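The cells described here are the distal convoluted tubule (DCT) and connecting tubule (CNT) cells of the postischemic mouse kidney. They were chosen by their own counts: a droplet barcode was selected on at least 1000 unique molecular identifiers (UMIs, which count captured RNA molecules), at most 50% UMIs of the mitochondrial genome, at least 4 UMIs and 0.3% of its UMIs from Slc12a3 and Calb1 together, and under 0.5% from Umod and Slc12a1, the markers of the neighbouring thick ascending limb. This rule found 64 of 3093 barcodes in the control library and 50 of 3984 in the JPI-289 library, or 114 of 7077 in all. Kidneys came from male C57BL/6 mice that were 9 weeks old. Both mice underwent bilateral ischemia-reperfusion injury and were sacrificed after 24 h. The control mouse was given saline and the treated mouse JPI-289, an inhibitor of poly(ADP-ribose) polymerase, at 100 mg/kg into the peritoneal cavity just before reperfusion. Each condition is 1 library from 1 mouse. The design therefore has no replicates, no difference between treatments could be tested, and the values describe these particular libraries. Every interval given is a 95% interval of counting error alone, except those of medians, which describe the spread over genes. None of them covers the spread between mice or that between cells.

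The DCT reabsorbs sodium chloride through the thiazide-sensitive cotransporter NCC, which Slc12a3 encodes, and it takes up magnesium. The CNT follows it and carries out regulated calcium reabsorption with calcium-binding proteins that buffer the ion inside the cell, together with sodium uptake through the epithelial channel ENaC and potassium secretion. These segments have a high content of mitochondria and of the sodium pump, and they lie between the loop of Henle and the collecting duct.

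The control library held 38328760 UMIs and the JPI-289 library 35548396. The selected cells held 277815 and 201844 of these. A control cell had 1143 to 21303 UMIs with a median of 2805, and a JPI-289 cell 1051 to 17129 with a median of 1974.5. The median number of genes was 1205.5 and 1006.5 per cell, and the median mitochondrial share was 7.40% and 3.97%. The deepest 5 cells of each library gave 29.2% and 33.9% of these UMIs, so a sum over cells leans on a few of them. No selected barcode occurred in both libraries, against 14 of all barcodes of the same depth.

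The selected cells were 2.07% of control barcodes (exact binomial interval 1.60 to 2.63%) and 1.26% of JPI-289 barcodes (0.933 to 1.65%). Since the number of neutrophils and other cells in the denominator also differed between the libraries, the share is not a measure of how many tubule cells the kidney held. Many cells lay near the threshold. A marker share between 0.3% and 0.4% was found in 17 control and 20 JPI-289 cells, and 12 and 27 further barcodes with a share of 0.2% to 0.3% were left out. Of the barcodes that met the marker rule, 2 control and 1 JPI-289 barcodes were left out for their mitochondrial share. The limit on Umod and Slc12a1 removed 2 control barcodes and none in the JPI-289 library, while 6 control cells and 0 JPI-289 cells stayed just inside it, with 0.25% to 0.5%.

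The label was then set beside the genes most concentrated in the cells. Among the genes with at least 50 UMIs, those most concentrated in the control cells over all other control barcodes were, after Slc12a3, Abca13 (84.5-fold), Calb1 and Ptgfr (63.7-fold), followed by Ccl5, Cwh43 and Pgam2, the muscle-type phosphoglycerate mutase (36.1-fold). All 51 Ccl5 UMIs came from 1 cell, so this chemokine does not mark the group. Tmem52b stood at 23.9-fold, the potassium channel Kcnj1 at 14.9-fold and Wnk4 at 10.8-fold. In the JPI-289 cells Calb1 and Slc12a3 were followed by Pgam2 (37.6-fold) and S100g (14.4-fold). These ratios describe how the group was chosen and are not a test. Parvalbumin (Pvalb), a calcium-binding protein of the early DCT, had only 1 and 3 UMIs, and the calcium channel Trpv5 had 4 and 3.

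Genes of other cell types were then counted. Slc12a1, the cotransporter of the thick ascending limb, which the rule limited, had 0 UMIs in both libraries, which allows up to 0.108 UMIs per 10000 in control and 0.149 in JPI-289 cells, although it had 430 and 137 UMIs in the barcodes with the thick ascending limb markers. The 9 markers of that segment together gave 20.3 UMIs per 10000 in control and 5.65 in JPI-289 cells, led by Umod in control and by Kng2 in JPI-289 cells. Kng2 had 237 and 88 UMIs. It was itself concentrated in the selected cells, at 17.9-fold over other barcodes in control and 7.89-fold in the JPI-289 library. The 20 proximal tubule markers gave 29.9 and 16.1 per 10000, with Gpx3 the most abundant. Those of principal cells gave 2.16 and 2.33, and those of intercalated cells 0.936 and 0.793. The 8 neutrophil markers gave 14 UMIs in control and 910 in JPI-289 cells, of which 878 came from 1 cell of 5468 UMIs that also carried 24 UMIs of Slc12a3 and Calb1. No doublet caller was run, and this cell was kept. The 10 endothelial markers gave 10 and 27 UMIs, and the 9 macrophage markers 11 and 4.

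Slc12a3 (chr8:94329201-94366214, plus strand, coordinates of GENCODE on GRCm38, the mm10 build) and Calb1 (chr4:15881264-15908064, plus strand), which encodes calbindin-D28k, chose the cells, and their levels are given as a description. Slc12a3 had 1271 UMIs in control and 308 in JPI-289 cells, or 45.7 and 15.3 per 10000. Calb1 had 740 and 876, or 26.6 and 43.4 per 10000. The balance of these genes differed between the libraries. More Slc12a3 than Calb1 was counted in 41 of 64 control cells (64.1%, exact binomial interval 51.1 to 75.7%) and in 10 of 50 JPI-289 cells (20%, 10.03 to 33.7%). No Slc12a3 UMI at all was found in 8 control and 23 JPI-289 cells, and no Calb1 UMI in 11 and 2. Fewer cells rich in Slc12a3 and less Slc12a3 RNA per cell cannot be told apart from these counts.

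**Figure D1:**
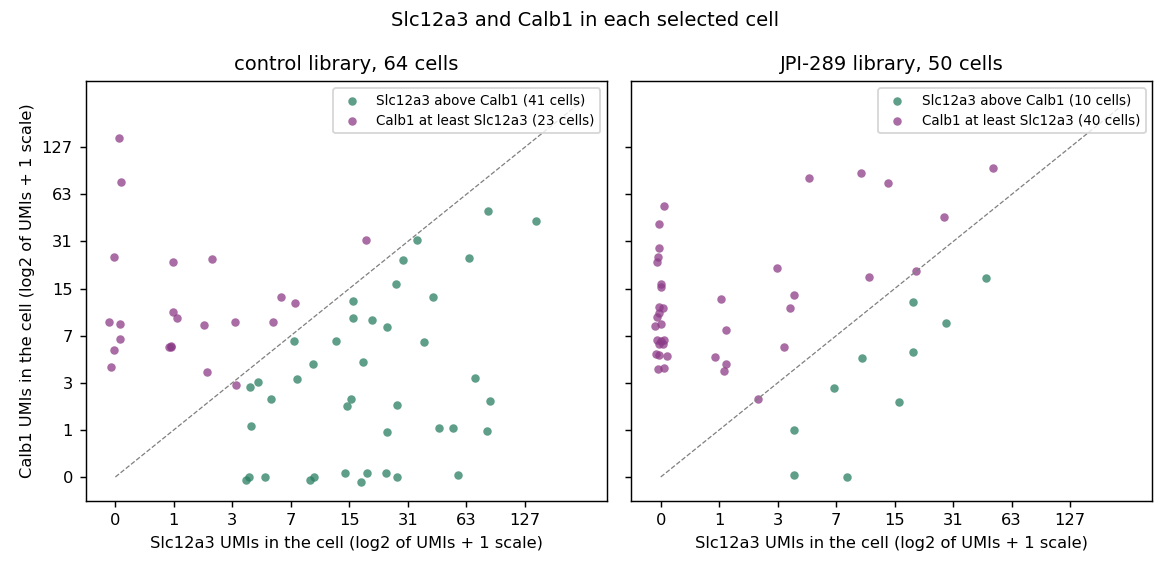
Each point is 1 selected cell, with its Slc12a3 UMIs on the x axis and its Calb1 UMIs on the y axis, both as log2 of UMIs + 1 and nudged slightly so that equal values do not overlap; the dashed line marks equal counts. Below the line lie 41 of 64 control cells but 10 of 50 JPI-289 cells, and 23 JPI-289 cells stand at 0 on the Slc12a3 axis.

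Because of this difference in balance, the main results below are also given within both kinds of cell, called the Slc12a3 stratum (more Slc12a3 than Calb1 UMIs) and the Calb1 stratum (at least as many Calb1 as Slc12a3 UMIs). A stratum is a range of counts and not a cell type: 10 control and 3 JPI-289 cells had between 40% and 60% of both genes' UMIs from Slc12a3. The Slc12a3 stratum was the deeper, with a median of 4086 UMIs per control and 3936 per JPI-289 cell, against 1966 and 1824 in the Calb1 stratum. Its median mitochondrial share was 10.98% and 5.27%, against 3.49% and 3.61%.

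The marker with most UMIs over both libraries that the rule did not use was S100g (chrX:162961992-162964599, minus strand), the gene of calbindin-D9k, a small cytosolic calcium buffer. It had 866 UMIs in control and 2447 in JPI-289 cells, or 31.2 (29.1 to 33.3) and 121 (116 to 126) UMIs per 10000, a log2 ratio of JPI-289 over control of 1.96 (1.85 to 2.07). S100g UMIs were seen in 24 of 64 control and in 43 of 50 JPI-289 cells. The picture differed between the strata. In the Calb1 stratum S100g stood at 139 per 10000 in control and 155 in JPI-289 cells, a log2 ratio of 0.16. In the Slc12a3 stratum it was far lower, at 4.31 and 24.0, from 12 of 41 and 6 of 10 cells. The log2 ratio there was 2.47 (2.08 to 2.88), from 96 and 126 UMIs. With both strata given the same weight in each library, the levels were 71.7 and 89.7 and the log2 ratio was 0.32. The strata were cut on genes that chose the cells, so these values are a description.

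After each cell had been thinned to 1000 UMIs, S100g was found in 26.6% of control and 80% of JPI-289 cells. Among neutrophil barcodes, a cell type without S100g expression, the share was 8.45% of 142 and 12.7% of 510, and their median depths were 2211.5 and 2317.5 UMIs. Endothelial barcodes showed 6.38% and 8.93%, with median depths of 3498.5 and 3338. The source of the UMIs in these barcodes was not tested. S100g is no marker of these cells alone, since 31.9% of control and 35.3% of JPI-289 barcodes with proximal tubule markers had a UMI.

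Klk1 (chr7:44225360-44229618, plus strand) encodes tissue kallikrein, a protease that CNT cells secrete into the urine. It shares sequence with a large family of close copies, so its count is uncertain to that extent. Klk1 had 1497 and 1491 UMIs, or 53.9 and 73.9 per 10000, a log2 ratio of 0.46 (0.35 to 0.56). In the Calb1 stratum it was lower in the JPI-289 library (103 and 80.3 per 10000) and in the Slc12a3 stratum higher (41.6 and 55.5), and with equal strata the log2 ratio was -0.09. The thinned share of cells was 64.1% and 74%, against 14.1% and 8.63% of neutrophils.

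Tmem52b (chr6:129512555-129519227, plus strand), a membrane protein gene of the distal nephron, went the other way. It had 118 UMIs in 33 control cells and 10 UMIs in 8 JPI-289 cells, or 4.25 and 0.495 per 10000, a log2 ratio of -3.04 (-4.20 to -2.17). It was low in both strata of the JPI-289 library. In the Calb1 stratum it had 28 and 10 UMIs, or 5.06 and 0.669 per 10000. In the Slc12a3 stratum 90 control UMIs stood against 0 of 52465 JPI-289 UMIs, at least 7.07-fold lower if 3 counts are taken as the floor of the summed JPI-289 cells. The thinned share of cells was 29.7% and 6%, and in neutrophils 0.704% and 0.196%.

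Across all genes, 1251 had at least 50 UMIs over both libraries and are called measured. A log2 ratio of at least 1 was found for 154 of them (12.3%), one of at most -1 for 97 (7.75%), and one above 0 for 755 (60.4%). The median ratio was 0.17 (0.12 to 0.22, an interval over genes), so most genes leaned slightly towards the JPI-289 library. Centred on that median, the counts were 102 and 112. Without the cell that carried neutrophil RNA, 139 of 1229 and 94 of 1229 genes were counted. Counts of gene groups below are to be read against these shares. Within strata the shares above 0 were 59.8% of 676 genes in the Slc12a3 and 44.9% of 570 in the Calb1 stratum. With both strata weighted equally the share was 56.2% of 1283.

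The group around NCC was mostly lower in the JPI-289 cells. Of 18 listed genes 8 were measured, 2 of them above 0 and 3 at most -1, against 60.4% and 7.75% of all measured genes. Their median was -0.57, but Slc12a3 itself is among them. The median was 0.14 in the Calb1 stratum, where 4 genes were measured. Wnk4, a kinase that regulates NCC, had 126 and 32 UMIs (4.54 and 1.59 per 10000), a log2 ratio of -1.5 (-2.12 to -0.95). Kcnj16, a subunit of the basolateral potassium channel, had 115 and 30 UMIs, a ratio of -1.46 (-2.11 to -0.89), while its partner Kcnj10 had 48 and 34, a ratio of -0.03. Stk39, the kinase SPAK that phosphorylates NCC, had 33 and 7 UMIs and was under the minimum. Within the Slc12a3 stratum Wnk4 was at -1.80 and Kcnj16 at -1.56. Within the Calb1 stratum they were at -0.80 (-1.75 to 0.21) and -0.19 (-1.32 to 1.16), where the intervals hold 0. Sgk1, the aldosterone-induced kinase, was the member at or above 1, with 23 and 43 UMIs and a ratio of 1.35.

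Accessory subunits of the sodium pump were lower in the JPI-289 cells in both strata. Atp1b1, the beta subunit, had 41.3 and 24.4 UMIs per 10000, a log2 ratio of -0.76 (-0.91 to -0.60), and Fxyd2, the gamma subunit, had 116 and 61.4, a ratio of -0.92 (-1.02 to -0.83). With the strata taken apart, Atp1b1 was at -0.72 and -0.67, and Fxyd2 at -0.85 and -1.37 in the Slc12a3 and Calb1 stratum. Atp1b1 was seen in 63 of 64 control and 41 of 50 JPI-289 cells. Of the list of ENaC, potassium secretion and pump genes, 6 of 16 were measured and 2 were above 0, against 60.4% of all measured genes. Their median was -0.77. Scnn1a, the alpha subunit of ENaC, was above 0, with 85 and 103 UMIs and a ratio of 0.74 (0.31 to 1.17). Kcnj1, the secretory potassium channel ROMK, had 59 UMIs in 29 control cells and 1 UMI in the JPI-289 cells, a log2 ratio of -4.85 (-10.75 to -2.89).

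**Figure D2:**
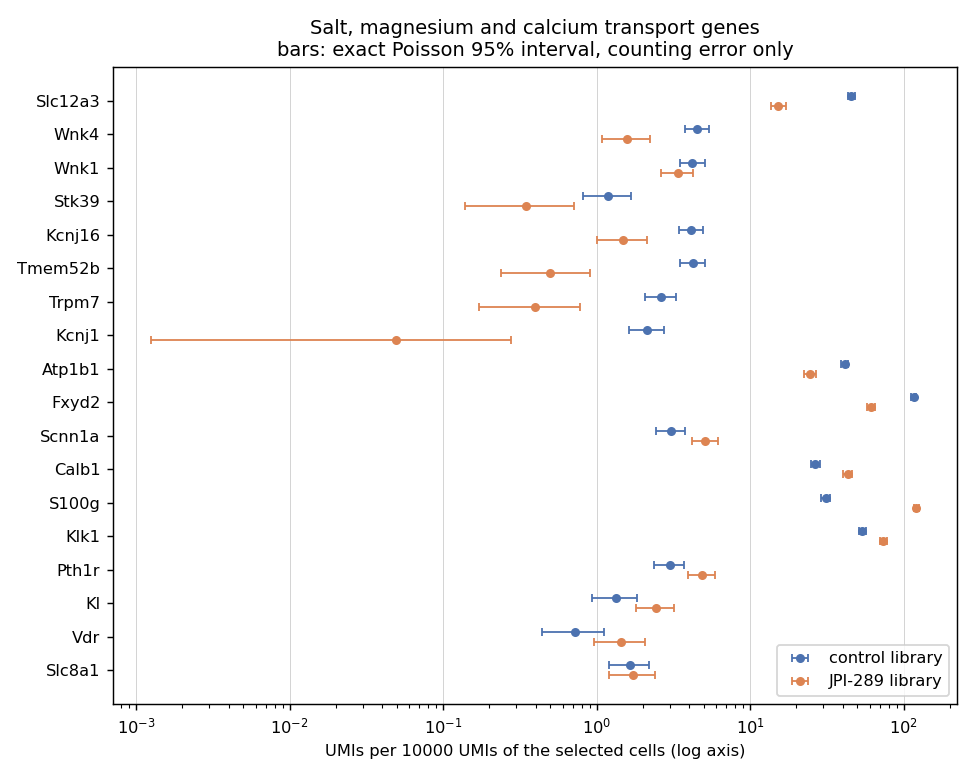
Levels of salt, magnesium and calcium transport genes in UMIs per 10000 UMIs of the selected cells, on a log axis, for the control library (64 cells) and the JPI-289 library (50 cells); points are sums over cells and bars exact Poisson intervals of counting error. Slc12a3, Wnk4, Tmem52b, Kcnj1 and the pump genes Atp1b1 and Fxyd2 stand to the left in the JPI-289 library, and Calb1, S100g, Klk1 and Pth1r to the right.

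Genes of calcium handling were higher in the JPI-289 cells when all cells were summed, and the median of the list was lower within both strata. All 6 measured of 16 listed genes were above 0, against 60.4% of all measured genes, with a median of 0.70. However, this list holds Calb1, which chose the cells, and S100g and Klk1 described above. Pth1r, the parathyroid hormone receptor, had 83 and 98 UMIs (2.99 and 4.86 per 10000), a log2 ratio of 0.70 (0.26 to 1.14). Kl, the gene of Klotho, had 37 and 49 UMIs, a ratio of 0.86 (0.22 to 1.52), but was at -0.72 (-3.29 to 0.80) in the Slc12a3 stratum, from 24 and 3 UMIs, at 0.35 (-0.52 to 1.40) in the Calb1 stratum and at 0.095 with equal strata. The sodium-calcium exchanger Slc8a1 had 46 and 35, a ratio of 0.07. Vdr, the vitamin D receptor, had 20 and 29 UMIs and was just under the minimum. Within the Slc12a3 stratum 3 of 4 measured calcium genes were above 0, with a median of 0.41, against 59.8% of all 676 genes measured there. Within the Calb1 stratum 3 of 5 measured calcium genes were above 0, with a median of 0.16, against 44.9% of all 570 genes measured there. With both strata weighted equally 4 of 7 were above 0, against 56.2% of all 1283 genes measured in that way, and the median was 0.095. Calb1 itself was at -0.30 in the Slc12a3 and -0.57 in the Calb1 stratum, and Slc8a1 at -1.70, from 34 and 2 UMIs, and -0.01.

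In the magnesium group 3 of 13 genes were measured and 0 were above 0, against 60.4% of all measured genes. Trpm7, a channel with a kinase domain, had 73 and 8 UMIs, a log2 ratio of -2.65 (-3.99 to -1.67). It was at -3.39 (-9.29 to -1.43) in the Slc12a3 stratum, from 66 and 1 UMIs. In the Calb1 stratum it was at -1.43 (-3.17 to 0.31), from 7 and 7, where the interval holds 0. The magnesium channel Trpm6 had 17 and 18 UMIs and Egf, a hormone that stimulates magnesium uptake, 23 and 14. Tfcp2l1, a transcription factor of distal tubule cells, was at -1.44 (-2.13 to -0.83), with 102 and 27 UMIs. It was at -1.33 (-2.66 to -0.37) in the Slc12a3 and -0.79 (-1.89 to 0.41) in the Calb1 stratum.

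NRF2 is a transcription factor that turns on genes of glutathione synthesis, thioredoxin and NADPH supply under oxidative stress. All 18 measured of its 25 listed targets were above 0, and 9 were at or above 1, against 60.4% and 12.3% of all measured genes, and the median was 1.01. Gclm, the modifier subunit of the enzyme that makes the glutathione precursor, had 25 UMIs in 17 control cells and 96 UMIs in 35 JPI-289 cells (0.900 and 4.76 per 10000), a log2 ratio of 2.38 (1.75 to 3.10). Pgd, which supplies NADPH, had 16 and 54 UMIs, a ratio of 2.18 (1.39 to 3.12). Prdx1, a peroxiredoxin, had 301 and 370, a ratio of 0.76 (0.54 to 0.98). The ferritin chains had small ratios: Fth1, the most abundant of the list, had 187 and 232 UMIs per 10000, a ratio of 0.30, and Ftl1 29.0 and 29.6, a ratio of 0.03. Gstp1, a glutathione transferase, was at 0.26 (-0.08 to 0.60).

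NRF2 itself, encoded by Nfe2l2, had 65 UMIs in 29 control cells and 191 in 47 JPI-289 cells, a log2 ratio of 2.01 (1.60 to 2.45), and was at 1.93 in the Slc12a3 and 1.65 in the Calb1 stratum. The targets were above 0 in 10 of 12 genes measured in the Slc12a3 stratum, where 59.8% of all genes were, and in 13 of 15 in the Calb1 stratum, where 44.9% were. With both strata weighted equally 17 of 18 were above 0, against 56.2% of all genes, and the median was 0.85. Of the unmeasured targets, Osgin1 is named after its values were seen because it went the other way, with 18 UMIs in 5 control cells and 0 in the JPI-289 cells, at least 4.36-fold lower by the floor of 3 counts.

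NRF2 binds the antioxidant response element, whose core is TGACNNNGC on either strand. The 250 bases before each gene's start were searched in the RefSeq promoters of GRCm38.p6. Of the measured targets 15 had an entry and 3 of these held the core (20%), against 11.5% of all 27025 genes in the table. These 3 promoters are shown with 10 bases on either side, read along the gene, with the match in capitals. In each of them the core lies on the opposite strand.
Gclm, chr3:122245413-122245441, plus strand: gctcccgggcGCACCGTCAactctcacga
Txnrd1, chr10:82859104-82859132, plus strand: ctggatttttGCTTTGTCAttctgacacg
Prdx1, chr4:116685456-116685484, plus strand: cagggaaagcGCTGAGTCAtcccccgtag
The match in Gclm begins 134 bases before the gene's start, that in Txnrd1 92 and that in Prdx1 133. Txnrd1, the thioredoxin reductase, which is named here for its promoter after its values were seen, had 63 and 104 UMIs and a log2 ratio of 1.18 (0.72 to 1.66). A match of letters is a description and not a site of binding, and a promoter without one, as for the other 12, says only that these letters are not in this window.

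The proteasome degrades tagged proteins, and its subunits were nearly all higher in the JPI-289 cells. Of 23 measured genes 22 were above 0 and 5 were at or above 1, against 60.4% and 12.3% of all measured genes. The median was 0.80 (0.66 to 0.95, an interval over genes). Psma2 had 31 and 73 UMIs, a log2 ratio of 1.68 (1.07 to 2.35), and Psma6 24 and 51, a ratio of 1.53 (0.82 to 2.31). The subunit with most UMIs, Psmb5, had 111 and 118, a ratio of 0.55 (0.16 to 0.94). Psma1, with 34 and 22 UMIs and a ratio of -0.16 (-1.01 to 0.65), was the only measured subunit under 0. The median was 1.10 over 9 subunits in the Slc12a3 stratum and 0.35 over 11 in the Calb1 stratum. In the Calb1 stratum 9 were above 0, against 44.9% of all genes measured there.

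**Figure D3:**
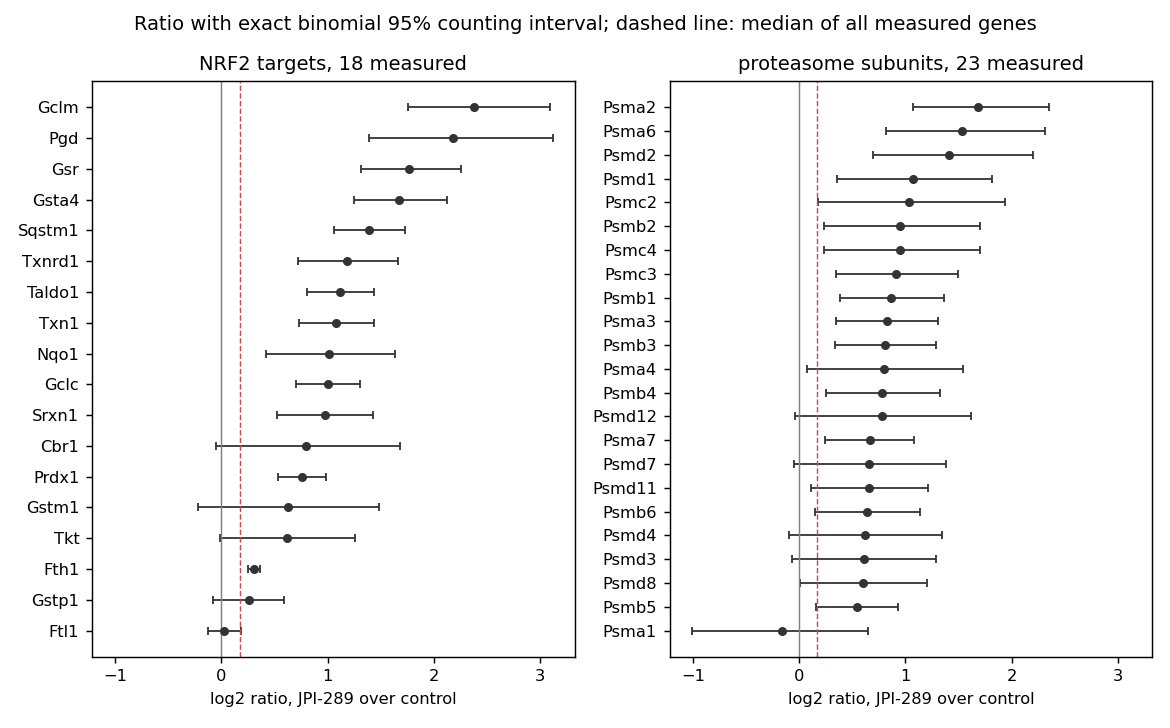
Log2 ratio of JPI-289 over control for each measured NRF2 target (18) and proteasome subunit (23) in the selected cells, with exact binomial intervals of counting error; the solid line is 0 and the dashed line the median of all measured genes. All targets and 22 of 23 subunits lie above 0, from Ftl1 at 0.03 to Gclm at 2.38 and from Psma1 at -0.16 to Psma2 at 1.68.

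Other protein and metal stress genes were also counted. Of all measured genes 60.4% were above 0 and 12.3% at or above 1. Above 0 were 59.8% in the Slc12a3 and 44.9% in the Calb1 stratum. Of the chaperones 15 of 18 were above 0 with a median of 0.31, against 7 of 8 with a median of 0.59 in the Slc12a3 stratum and 2 of 4 with a median of 0.067 in the Calb1 stratum. The chaperones were led by Cct5 (21 and 46 UMIs, log2 ratio 1.57) and Tcp1 (1.41), subunits of the folding complex that serves actin and tubulin. Hspa1a, the inducible HSP70, was lower, with 69 and 16 UMIs and a ratio of -1.61 (-2.53 to -0.85), but it was at 0.28 (-1.48 to 2.92) in the Calb1 stratum, from 3 and 11 UMIs. In the list of the integrated stress and unfolded protein response 5 of 6 were above 0 and 4 at or above 1, with a median of 1.23, among them Eif4ebp1 (17 and 44 UMIs, 1.81) and Herpud1 (23 and 52, 1.62), while the endoplasmic reticulum chaperone Calr was at -1.24. The metallothioneins Mt1 and Mt2, near copies of each other that bind zinc, had 77.5 and 142 and 7.92 and 14.5 UMIs per 10000, both a ratio of 0.87. Mt1 was at 1.27 in the Slc12a3 and 0.20 in the Calb1 stratum.

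The injury genes were split. Of 16 measured genes 8 were above 0, against 60.4% of all measured genes, with a median of 0.03. Spp1, the gene of osteopontin, was the most abundant, at 441 and 432 UMIs per 10000, a log2 ratio of -0.03 (-0.07 to 0.01). It was at 0.56 (0.51 to 0.62) in the Slc12a3 and 0.09 (0.02 to 0.17) in the Calb1 stratum, and at 0.39 with equal strata. Clu, the gene of clusterin, stood at 50.03 and 40.8, a ratio of -0.29. Havcr1, the proximal tubule injury gene KIM-1, had 2 and 5 UMIs. Lcn2, which encodes the injury marker NGAL, had 1996 UMIs in 54 control cells and 508 in 35 JPI-289 cells, or 71.8 and 25.2 per 10000, a ratio of -1.51 (-1.66 to -1.37). The lower Lcn2 lay mainly in the Calb1 stratum, with 55.3 and 13.3 per 10000 against 76.0 and 59.1 in the Slc12a3 stratum. A single cell gave 21.1% of its control UMIs and another 22.8% of its JPI-289 UMIs. Neutrophil barcodes also held Lcn2, at 67.6 and 57.3 per 10000, and without the cell that carried neutrophil RNA the ratio was -1.55. With equal strata it was -0.86. Free RNA, summed over barcodes under 100 UMIs, held Lcn2 as 0.139% of control and 0.224% of JPI-289 UMIs, against 0.718% and 0.252% in the distal cells, so the JPI-289 level was 112% of that in free RNA and the control level 518%. After subtraction of free RNA the ratio was -1.61. The part of free RNA in it was not tested further. Lgals3, the gene of galectin-3, was higher in both strata, with 185 and 601 UMIs overall (6.66 and 29.8 per 10000), a ratio of 2.16 (1.92 to 2.41). A single JPI-289 cell gave 29.3% of the JPI-289 UMIs of Lgals3.

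Cdkn1a, the cell cycle inhibitor p21, had 28 UMIs in 16 control cells and 149 in 37 JPI-289 cells, a log2 ratio of 2.85 (2.28 to 3.51), with 1.12 and 12.4 per 10000 in the Slc12a3 and 0.542 and 5.62 in the Calb1 stratum, the latter from 3 and 84 UMIs. Of all 6 measured p53 targets, Cdkn1a included, 4 were above 0, against 60.4% of all measured genes, with a median of 0.23. The median was -0.91 in the Slc12a3 stratum (2 of 4) and 1.27 in the Calb1 stratum (3 of 4). Of all genes measured in these strata 59.8% and 44.9% were above 0. Btg2, an inhibitor of proliferation, was at -2.59 (-3.91 to -1.67) in the former, from 217 and 8 UMIs, and at 2.23 (1.44 to 3.27) in the latter, from 12 and 158. Gdf15, a stress cytokine, had 257 and 9 UMIs, a ratio of -4.30, but 1 control cell held 53.7% of its control UMIs. Gdf15 was at -3.73 in the Slc12a3 and -1.43 (-3.55 to 0.69) in the Calb1 stratum, the latter from 5 and 5 UMIs. With equal strata it was at -3.42. Parp1, the main target of the drug, had 4 UMIs in control and 0 in JPI-289 cells, too few for a comparison, and no gene of the PARP and NAD list or of the cell cycle list was measured.

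**Figure D4:**
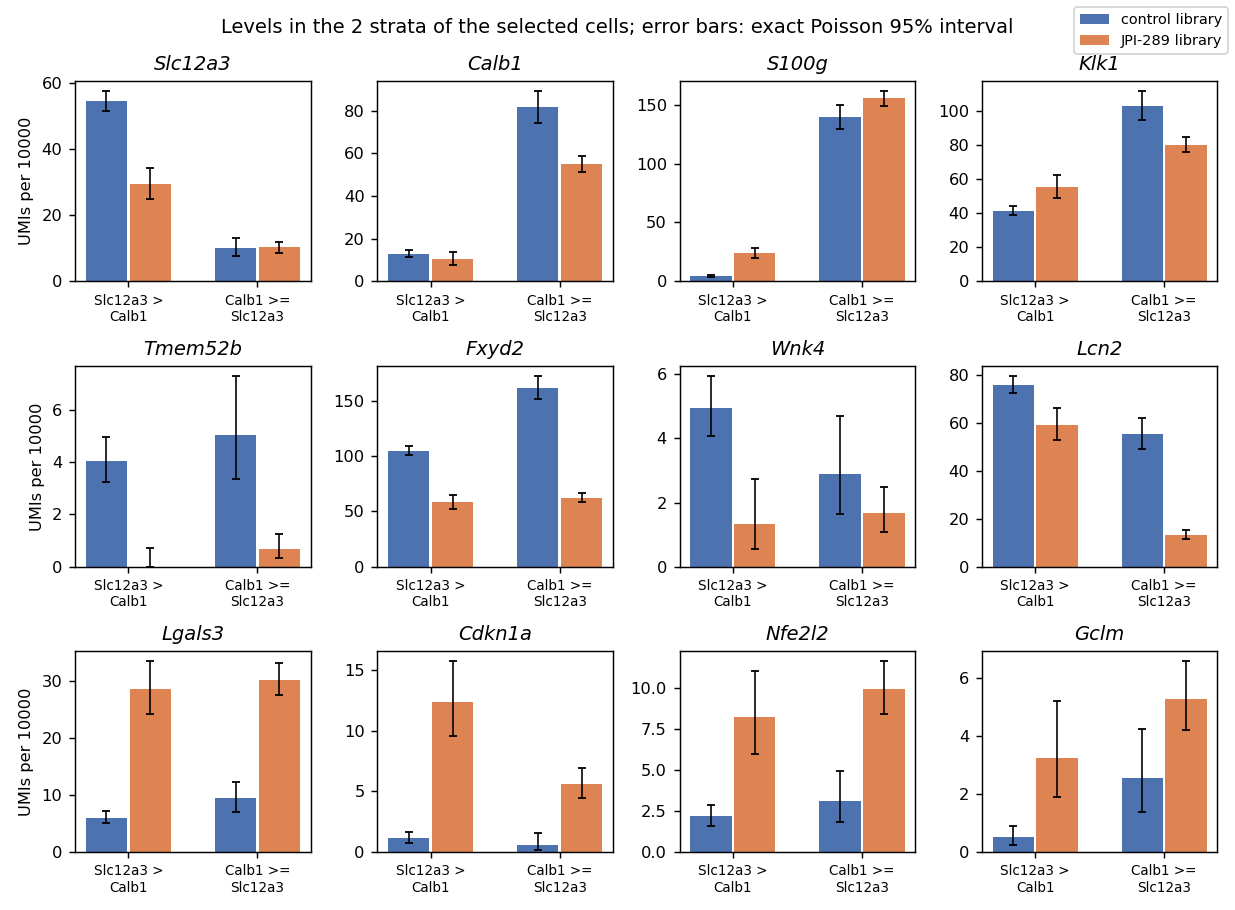
UMIs per 10000 of 12 genes in the cells with more Slc12a3 than Calb1 (41 control, 10 JPI-289) and in those with at least as much Calb1 (23 control, 40 JPI-289); bars are sums over cells with exact Poisson intervals of counting error. Tmem52b, Fxyd2 and Lcn2 are lower and Lgals3, Cdkn1a, Nfe2l2 and Gclm higher in the JPI-289 library in both strata, while S100g reaches 139 and 155 in the Calb1 stratum. Wnk4 is lower in the Slc12a3 stratum, and in the Calb1 stratum its log2 ratio is -0.80 with an interval that holds 0 (-1.75 to 0.21).

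Among genes with at least 100 UMIs, the 10 with the highest ratio held S100a9 and S100a8, of which a single cell gave 98.6% and 96.7% of the JPI-289 UMIs, and then Nfkbia (12 and 88 UMIs, log2 ratio 3.28), Cdkn1a, Cldn4, Gclm, Bcl2l1, Lgals3, Nfe2l2 and S100g. Nfkbia encodes an inhibitor of NF-kB and is itself switched on by it. It was at 3.02 without the cell that carried neutrophil RNA, and 16 JPI-289 cells had it. Cldn4, a tight junction claudin, had 44 and 176 UMIs, a ratio of 2.45 (1.98 to 2.97), and Bcl2l1, the survival factor BCL-XL, 24 and 88, a ratio of 2.31 (1.67 to 3.05).

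The 10 lowest were Gdf15, Umod, Tmem52b, Pck1, Rhob, Ptgfr, Gm26917, Syne2, Pkhd1 and Gm43305. Umod, which the rule limited, had 313 and 26 UMIs. Pck1, an enzyme of glucose synthesis that is best known in the proximal tubule, had 117 UMIs in 45 control cells and 10 in the JPI-289 cells, a ratio of -3.02. Neutrophil barcodes held 6.78 and 0.816 per 10000, more than the 4.21 and 0.495 of the distal cells. After subtraction of free RNA Pck1 was under the gene minimum, and the part of free RNA in its ratio was not tested. Ptgfr, the prostaglandin F receptor, had 110 and 10 UMIs, a ratio of -2.93 (-4.10 to -2.07), and was at -1.89 in the Slc12a3 and -2.35 in the Calb1 stratum. Rhob, a small GTPase, had 101 and 9 UMIs, a ratio of -2.96. Syne2, a nuclear envelope protein, had 120 and 17, a ratio of -2.32, and Pkhd1, the gene of fibrocystin, 94 and 15, a ratio of -2.15. In the Slc12a3 stratum Rhob was at -3.14, Syne2 at -2.95 and Pkhd1 at -2.20. In the Calb1 stratum Rhob was at -1.61 (-3.32 to 0.03), Syne2 at -0.28 (-1.68 to 1.46) and Pkhd1 at -0.82 (-2.28 to 0.82). All of these Calb1 stratum intervals hold 0.

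Genes of the respiratory chain and the tricarboxylic acid cycle had medians slightly under 0 over all cells and lower ones within the Calb1 stratum. For the counts in this paragraph, 60.4% of all measured genes were above 0, with 59.8% in the Slc12a3 and 44.9% in the Calb1 stratum. Of the nuclear-encoded respiratory chain genes 28 of 78 were above 0, with a median log2 ratio of -0.10 and none at or beyond 1 in either direction. This median was -0.20 in the Slc12a3 stratum and -0.59 in the Calb1 stratum, where 8 of 66 were above 0, and it lay above 0 when every cell had the same weight. Of the tricarboxylic acid cycle 4 of 18 were above 0, with a median of -0.19 and Idh3a, a subunit of isocitrate dehydrogenase, at -1.38. In the Calb1 stratum 0 of 8 were above 0, with a median of -0.66, and with both strata weighted equally 3 of 22, with a median of -0.57, against 56.2% of all genes. The pooled median turned to 0.13 at a marker minimum of 8 UMIs and 0.6%, where only 6 genes were measured. It turned to 0.0079 when every cell had the same weight, over 21 genes. Of the fatty acid oxidation genes 5 of 11 were above 0, with a median of -0.28 over all cells, 0.55 in the Calb1 stratum (3 of 5) and -0.74 with equal strata (4 of 12). The genes of the mitochondrial genome had a median of 0.0035 with 6 of 12 above 0. The strata differed, at -0.26 (1 of 12) in the Slc12a3 and 0.23 (8 of 11) in the Calb1 stratum. Of the genes for cytosolic ribosomal proteins 66 of 80 were above 0 with a median of 0.28, but the median was -0.16 in the Calb1 stratum. Glycolysis genes had a median of 0.09, with Pkm at 0.79 (0.61 to 0.97) and Tpi1 at -0.73 (-1.20 to -0.29). The glycolysis median was -0.04 in the Slc12a3 (5 of 11) and -0.11 in the Calb1 stratum (3 of 10). With equal strata it was -0.089 (5 of 12).

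Immediate early genes, which switch on within minutes of a stimulus, depended on the stratum. Over all cells 7 of 19 were above 0, against 60.4% of all measured genes, with a median of -0.45. Jun had 412 and 154 UMIs, a log2 ratio of -0.96, Klf2 73 and 8, a ratio of -2.65 but with 0 and 7 UMIs in the Calb1 stratum, and Ier2 48 and 84, a ratio of 1.26. In the Slc12a3 stratum 3 of 17 were above 0, against 59.8% of all genes, and in the Calb1 stratum 10 of 11, against 44.9%. Jun was at -1.86 in the former and 1.23 in the latter, the latter from 20 and 129 UMIs.

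The library ratios of the distal cells were set beside those of 2 neighbouring kinds of barcode, those with thick ascending limb markers (65 control, 161 JPI-289) and those with the principal cell markers Aqp2 and Aqp3 (48 and 159). Median depths were 4234 UMIs in control and 3076 in JPI-289 thick ascending limb barcodes. Principal cell barcodes had 10085 in control and 1678 in JPI-289, so the latter were unlike in depth. All 3 kinds come from the same pair of libraries, and the differences between them were not tested. S100g was at 1.96 in the distal cells, or 0.32 with equal strata, at -2.34 (-2.64 to -2.06) in the thick ascending limb and at -0.70 in principal cells. Klk1 was at 0.46, -4.00 and -4.49, and in the control thick ascending limb it stood at 144 UMIs per 10000, above its level in the distal cells. Lcn2 was at -1.51 (-0.86 with equal strata), 1.19 (1.14 to 1.23) and -0.64. Fxyd2 was at -0.92, -1.77 and 0.13, and Tmem52b was low in all, at -3.04, -1.98 and -3.34.

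For Cdkn1a and Nfe2l2 the ratio was above 0 in all 3 kinds, for Gclm and Lgals3 in the distal and principal cells. Cdkn1a was at 2.85 in the distal cells, 2.24 in the thick ascending limb and 2.09 in principal cells, and Nfe2l2 at 2.01, 0.82 and 1.53. Gclm was at 2.38, -0.29 and 0.96, and Lgals3 at 2.16, -0.24 and 1.39. The NRF2 targets had a median of 1.01 in the distal cells, 0.26 in the thick ascending limb, where 11 of 19 were above 0 against 52% of all genes, and 0.45 in principal cells, where 18 of 21 were, against 52.1%. The proteasome medians were 0.80, 0.64 and 0.36.

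**Figure D5:**
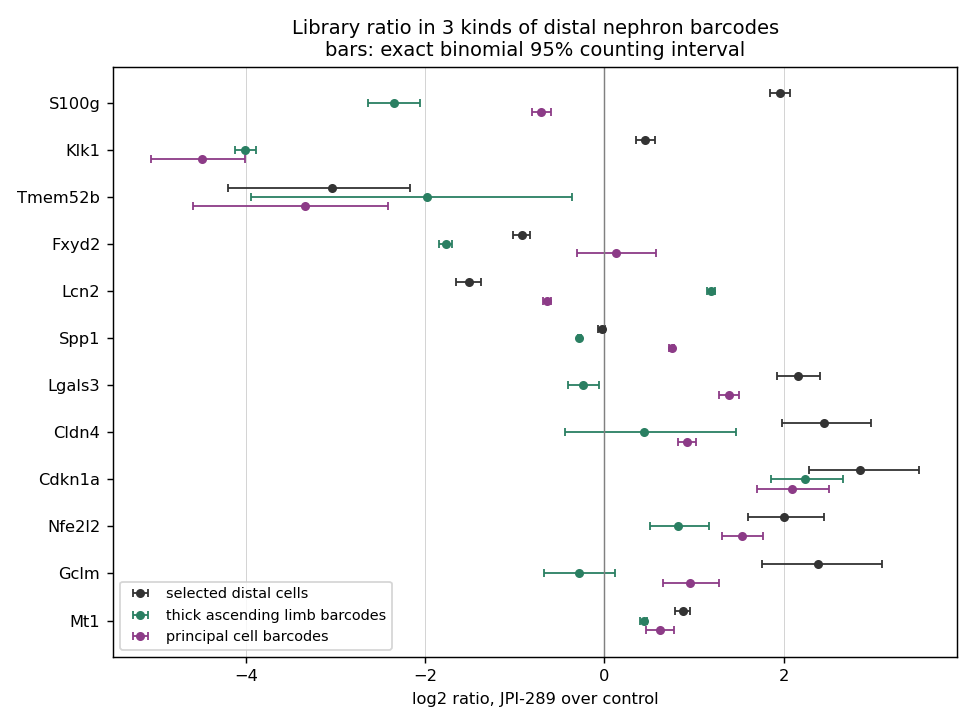
Log2 ratio of JPI-289 over control for 12 genes in the selected distal cells and in the barcodes with thick ascending limb or principal cell markers, with exact binomial intervals of counting error. S100g lies at 1.96 in the distal cells and at -2.34 and -0.70 in the other kinds, Lcn2 at -1.51 against 1.19 in the thick ascending limb, and Cdkn1a above 2 in all 3.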

How the data were processed

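The authors deposited raw counts of UMIs for all barcodes, gene by gene. The libraries of a 10x 5′ kit were processed with Cell Ranger 5.0.1 on mm10, per the submitters' processing notes. No cell calls came with them, and the clusters of the study were not used. Of 32285 gene identifiers 32235 were matched in GENCODE vM21 for coordinates.

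Cells were selected by the rule given above, with no doublet caller, and their UMIs summed per library. The log2 ratio is that of JPI-289 over control UMIs per total, with 0.5 UMI added to each sum. Genes with at least 50 UMIs over both libraries were measured. Intervals at 95% were exact Poisson for levels and exact binomial (Clopper-Pearson) for shares and ratios. Those of medians are bounded by the ratios of single genes. With 1 library per group no test was made. Shares of cells were computed after thinning each cell to 1000 UMIs. A count of 0 was given the floor of 3 counts. Free RNA was the sum of barcodes under 100 UMIs. Other barcodes were classed by markers, at 4 UMIs and 0.5% (thick ascending limb), 4 and 0.3% (principal, endothelial, proximal tubule) or 20 and 2% (neutrophils).

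The text names the listed markers and transport genes, per other list the 3 genes with most UMIs and 2 extremes in each direction, the 10 highest and 10 lowest ratios among genes with at least 100 UMIs, and the 20 genes most concentrated in the cells. The members and lists were chosen with earlier results of these data known. Alternatives varied the UMI, marker and gene minimums, the weighting of cells, the scaling and free RNA. The scripts were tested on simulated data. Python 3.11.15, numpy 2.4.6, scipy 1.17.1, pandas 2.3.3 and matplotlib 3.10.9 were used. Some genes that this rule names are not reported here.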

Additional observations from a re-analysis of the deposited data

Results flagged for a closer look

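In 4 genes the library ratio of the distal cells had the opposite sign to that of a neighbouring kind of barcode, past a log2 ratio of 1 on both sides. With 1 library per group none of these differences was tested. S100g was at 1.96 in the distal cells (0.32 with the cells rich in Slc12a3 and those rich in Calb1 weighted equally) and -2.34 in the thick ascending limb. Lcn2 was at -1.51 in the distal cells (-0.86 with that weighting) and 1.19 in the thick ascending limb. Hbb-bs, a hemoglobin gene of red blood cells with close copies, was at 2.32 in the distal cells, from 19 and 70 UMIs, and -5.66 in the thick ascending limb, from 1016 and 41 UMIs. A single JPI-289 cell held 72.9% of the 70 UMIs, and without it the ratio in the distal cells was 0.49 (-0.51 to 1.48), from 19 and 19 UMIs. This cell was picked for its count. The mitochondrial gene mt-Nd6 was at -1.09 in the distal cells, from 83 and 28 UMIs, and 1.21 in principal cells, from 67 and 184.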

How the results depend on the processing

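Of 59 named genes at or beyond a log2 ratio of 1, 58 kept their sign in the settings where they had enough UMIs to be measured, which were 8 to 20 of the 20 other settings and all 20 for 9 genes. Slc12a3, which chose the cells, was at 0.018 in the Calb1 stratum. Whatever their counts, none of the 59 had the opposite sign in the Slc12a3 stratum and 6 had it in the Calb1 stratum: Slc12a3, Cdh16 (0.46), Hspa1a (0.28), Abca13 (0.0077), and Klf2 and Ccl5, with 0 control UMIs there. With a minimum of 500 UMIs the control share was 1.30%, and with a marker minimum of 8 UMIs and 0.6% the shares were 0.938% and 0.377%. Genes at or above 1 numbered 93 at a minimum of 2000 UMIs per cell, 44 at the stricter marker minimum, 102 centred on the median gene, 243 with every cell equal, 36 thinned to 1000 UMIs, 459 and 56 at gene minimums of 20 and 100 UMIs, and 97 and 66 in the Slc12a3 and Calb1 stratum. Genes at or below -1 numbered 42 at the stricter marker minimum, 17 thinned, 324 and 43 at gene minimums of 20 and 100, and 41 in the Calb1 stratum.

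The settings did not measure the same genes. The proteasome median was 1.37 at the stricter marker minimum, over only 5 subunits, and 0.38 thinned, over only 2. In the main setting 23 were measured. It was 0.97 without the deepest 5% of cells (20 subunits), 0.62 centred (23) and 0.98 with every cell equal (24). In the Slc12a3 and Calb1 stratum it was 1.10 (9 subunits) and 0.35 (11), and with both strata weighted equally 0.52 (24). The oxidative phosphorylation median was -0.21 at 2000 UMIs, -0.27 centred, -0.20 and -0.59 in the strata and -0.39 with strata equal. It turned above 0 at the stricter marker minimum (0.27, over 62 genes) and thinned (0.19, over 43), where the main setting had 78. It was also above 0 with Umod and Slc12a1 under 0.25% (0.013), without the deepest cells (0.0030) and with every cell equal (0.18). The ribosomal median was 0.45 at the stricter marker minimum, 0.40 without the deepest cells, 0.11 centred, 0.47 with every cell equal, 0.46 thinned and 0.57 in the Slc12a3 stratum, and turned to -0.16 in the Calb1 stratum. The tricarboxylic acid cycle median turned to 0.13 at the stricter marker minimum, over 6 genes, and 0.0079 with every cell equal, over 21, where the main setting had 18. The causes were not tested. The NRF2 median stayed between 0.70 and 1.17 in all settings run. The equal weighting of strata and the removal of the cell with neutrophil RNA were chosen after seeing the data. No paired analysis was possible because each group is 1 library.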

Other observations

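The stress genes of the distal cells were also set beside barcodes with proximal tubule markers (1455 control, 289 JPI-289). Gclm had a log2 ratio of 1.94 there (1.85 to 2.03), with 3.34 and 12.8 UMIs per 10000, and Nfe2l2 one of 1.49 (1.32 to 1.67). Cdkn1a was at 2.62 and Lgals3 at 2.67. In endothelial barcodes Cdkn1a was at 1.80, with 6.01 and 20.9 per 10000, while in neutrophils it was at -0.50 (-0.71 to -0.27). Havcr1, with 2 and 5 UMIs in the distal cells, had 579 and 1078 UMIs in the proximal tubule barcodes, a log2 ratio of 3.10 (2.96 to 3.25). These kinds of barcode come from the same pair of libraries and their differences were not tested.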
